A study of Mus musculus with 9 samples.

Results

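The genes described here carried the widest H3K4me3 at their promoters in 3 cell types of mouse bone marrow. In each of 3 deposited interval lists, the lengths of all unique intervals annotated as promoter were summed for each gene, an interval annotated to several genes counting for each of them, and the 500 genes with the largest sum were kept. The 3 sets held 923 different genes of 13577 with a promoter interval in at least 1 list. Summed width therefore chose the members, and everything read from the same lists is given as a description, with no test. The RNA of the members was measured in other libraries and is what was tested.

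The cells came from untreated Balb/c mice, whose bone marrow was pooled before sorting. Granulocyte-macrophage progenitors (GMP) were Lin-, CD34+, CD16/32+ cells with high c-kit, eosinophil progenitors (EoP) were Lin-, CD34+, CD125+ cells with low c-kit, and eosinophils (Eos) were Siglec-F+, CCR3+ cells. RNA was sequenced from 2 sorts of each cell type and H3K4me3 chromatin immunoprecipitation from 1 sort of each, so the H3K4me3 lists have no replicate. Neither the labels nor the design text say that the 2 sorts used different animals, and the p-values below measure the spread between these samples.

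H3K4me3 is a trimethyl mark on lysine 4 of histone H3 that is laid down by SET1 and MLL complexes and sits around the start sites of active and poised genes. At most promoters it forms a short domain next to the nucleosome-depleted start, and at some genes it spreads into the transcribed region. Wide domains have been described at genes that mark a cell's identity. Neutrophil and eosinophil granule proteins, the receptors of the granulocyte surface and the transcription factors of the myeloid lineage are textbook identity genes of the cells sorted here.

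The RNA libraries held 5226653 to 12088134 estimated counts, and the GMP libraries, the shallowest at 6576661 and 5226653, listed the most genes with a count (19677 and 20542, against 14350 to 16489 in the others). The edgeR quasi-likelihood test covered 14324 genes, among them 488 of the GMP set, 492 of the EoP set and 492 of the Eos set. CPM are counts divided by library size and scaled by TMM factors, and compare libraries, not genes. Paired values are those of libraries 1 and 2 of a cell type. RPKM, which divide by transcript length, are used where genes are compared with each other. The markers of the sort were present in RNA: Ccr3, the eotaxin receptor, had 1.57 and 0.894 CPM in GMP, 21.3 and 34.5 in EoP and 2272 and 2973 in Eos, and Il5ra, the gene of CD125, had 2.18 and 1.79 CPM in GMP, 436 and 399 in EoP and 619 and 1179 in Eos. The late neutrophil list also stood high in Eos, with a summed level of 50449 and 59766 CPM over its 22 genes against 1295 to 2971 CPM in the GMP and EoP libraries. None of these 22 genes was a member of any set, and the part of such RNA in the results below was not tested.

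The sets began at different widths, highest in GMP, since membership is a rank within a list. A gene of the EoP or Eos set outside the GMP set can therefore have more bases in GMP. Cdk1, with 1485 bases in GMP and 1425 in EoP, was in the EoP set only. The last gene inside had a sum of 1719 bases in GMP, 1378 in EoP and 1433 in Eos, and the first gene outside had the same sum, since 5, 3 and 4 genes were tied there and the order of symbols decided. In GMP, Brox and Elf1 were inside and Rrs1 and Wbp4 outside, all at 1719 bases. In EoP, Etf1 was inside and Sin3a and Zfp703 outside at 1378 bases, and in Eos, Aak1 and Eed were inside and Lbr outside at 1433 bases. The median member summed to 1869 bases in GMP, 1497 in EoP and 1588 in Eos, against 932, 775 and 762 bases for the other genes with a promoter interval.

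Most members owed their width to several intervals. In GMP 261 members had 3 or more promoter intervals, 188 had 2 and 51 had 1, and in Eos the numbers were 210, 196 and 94. Genes with more than 1 annotated start were 32.6%, 24.4% and 28.0% of the GMP, EoP and Eos sets and near 10% of the other marked genes (9.80%, 9.96% and 9.83%). Intervals shared with a neighbouring gene touched 49.4%, 53.4% and 40.2% of the members, against 21.2%, 22.8% and 22.6% of the rest. Where a gene had 1 start, the members' width lay on both sides of it: the median was 1108 bases downstream and 755 upstream in GMP, 877 and 625 in EoP, and 1016 and 554 in Eos. The other genes had 118 to 219 bases upstream at the median, less than the members on either side. The members' best summit had a lower fold enrichment than that of other genes (medians 7.37, 6.88 and 7.20 against 9.86, 8.24 and 9.28) and a higher pileup (52, 30 and 33 against 39, 23 and 23), both the authors' own values.

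Promoter windows show how different the underlying DNA can be. RefSeq windows of GRCm38.p6, from 250 bases before to 50 after a start, were matched to 749 of the 923 members by symbol and position. The median member window held 24 CpG dinucleotides and 64.7% G and C. Windows of all genes with a promoter interval held 21 and 61.0%, and all RefSeq windows held 7 and 52.7%. Under 5 CpG were found in 6.94% of member windows, 8.27% of those of all marked genes and 38% of all windows. The letters TATAAA, on either strand, were in 5.36% of member windows, 7.02% of those of marked genes and 13.6% of all, and GGGCGG was in 65.9%, 63.3% and 35.7%. A match is a description of these letters, not a binding site.

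The 5 windows below were chosen because they span that range among the genes the results turn on: Gse1, the widest in every list, Rara and Axin2, which were widest in Eos, and Cd300lb and Prtn3, wide genes with a CpG-poor start. They are printed 5′ to 3′ on the strand of the gene, from RefSeq GRCm38.p6, with CpG in capitals. Gse1 has 3 windows in the table and Rara 4, of which the one that intervals cover most is shown. Gse1 lies at chr8:120488616-120488915 (+ strand, 17 CpG), Prtn3 at chr10:79879417-79879716 (+ strand, 4 CpG), Rara at chr11:98937446-98937745 (+ strand, 20 CpG), Cd300lb at chr11:114934322-114934621 (- strand, 4 CpG) and Axin2 at chr11:108920099-108920398 (+ strand, 31 CpG).

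Gse1: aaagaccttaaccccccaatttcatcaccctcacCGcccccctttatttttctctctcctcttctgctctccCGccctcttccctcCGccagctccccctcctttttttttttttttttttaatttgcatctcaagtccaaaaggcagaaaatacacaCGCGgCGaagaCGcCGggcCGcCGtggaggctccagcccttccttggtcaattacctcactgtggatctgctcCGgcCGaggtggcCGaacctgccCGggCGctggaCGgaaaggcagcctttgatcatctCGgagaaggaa
Rara: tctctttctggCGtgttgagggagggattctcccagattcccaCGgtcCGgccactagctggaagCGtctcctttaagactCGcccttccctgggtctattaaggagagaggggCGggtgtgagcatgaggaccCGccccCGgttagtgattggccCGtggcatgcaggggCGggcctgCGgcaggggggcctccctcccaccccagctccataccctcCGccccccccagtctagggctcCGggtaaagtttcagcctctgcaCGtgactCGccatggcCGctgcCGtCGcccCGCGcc
Axin2: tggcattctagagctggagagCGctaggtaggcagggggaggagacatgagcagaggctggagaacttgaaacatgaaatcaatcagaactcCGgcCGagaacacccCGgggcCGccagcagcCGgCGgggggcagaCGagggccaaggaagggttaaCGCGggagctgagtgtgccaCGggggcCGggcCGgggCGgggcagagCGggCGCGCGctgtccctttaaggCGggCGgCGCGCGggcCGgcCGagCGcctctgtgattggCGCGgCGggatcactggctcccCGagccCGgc
Cd300lb: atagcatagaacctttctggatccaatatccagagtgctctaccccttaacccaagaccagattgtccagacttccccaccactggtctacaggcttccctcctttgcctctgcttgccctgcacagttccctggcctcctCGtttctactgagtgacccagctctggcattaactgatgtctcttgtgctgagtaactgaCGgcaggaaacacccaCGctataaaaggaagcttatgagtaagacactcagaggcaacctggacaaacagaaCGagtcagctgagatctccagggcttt
Prtn3: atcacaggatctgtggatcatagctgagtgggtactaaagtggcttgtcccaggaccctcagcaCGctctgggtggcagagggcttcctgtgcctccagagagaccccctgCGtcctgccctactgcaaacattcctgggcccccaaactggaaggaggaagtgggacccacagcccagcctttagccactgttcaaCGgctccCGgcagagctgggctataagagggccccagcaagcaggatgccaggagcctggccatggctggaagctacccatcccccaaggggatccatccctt

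The Axin2 and Rara windows are dense in CpG and hold GGGCGG, and the Cd300lb window, with 4 CpG, holds TATAAA. Prtn3 has 4 CpG and neither motif. No interval of any list covered the Prtn3 window, since its single GMP interval began downstream of the start. The intervals covered 200 of the 300 bases of the Gse1 window in GMP and all 300 in EoP and Eos. At Rara the covered part was 115 bases in GMP, 174 in EoP and 208 in Eos. At Axin2 it was 28 bases in GMP, 19 in EoP and 0 in Eos, and at Cd300lb 96, 0 and 75. Coverage of the Axin2 and Cd300lb windows therefore did not follow their summed width.

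Several cell-type genes carried 1 long interval that lay inside the transcript. This was not typical of the sets: among genes with 1 start, members had a smaller share of their width downstream than other marked genes. The median shares were 60.6%, 58.8% and 64.3% in GMP, EoP and Eos, against 73.9%, 83.1% and 74.2%. Prtn3, the gene of proteinase 3, had an interval of 2739 bases in GMP (chr10:79879969-79882707, mm10), the longest single interval of that list's members, from 301 to 3039 bases after the start of a transcript that spans 3505 bases. No promoter interval of Prtn3 was listed in EoP or Eos. Ctsg, the gene of cathepsin G, had 2119 bases in GMP (chr14:56100009-56102127), which is most of its 2693-base transcript, 145 bases in EoP and no promoter interval in Eos. Prg2, the gene of major basic protein, had 616 bases in GMP, 1923 in EoP (chr2:84980913-84982835) and 630 in Eos, and its EoP interval ran from 451 to 2373 bases after the start of a 3171-base transcript. The Eos members Cd300lb (chr11:114932858-114934396, 1539 bases) and Itgb2 (chr10:77530397-77531850, 1454 bases) each had 1 long interval in Eos that ran into the gene, and summed to less in GMP and EoP (477 and 518 bases for Cd300lb, 424 and 837 for Itgb2). Axin2, an inhibitor in Wnt signalling, extended from 936 bases in GMP to 1189 in EoP and 1879 in Eos.

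**Figure D1:**
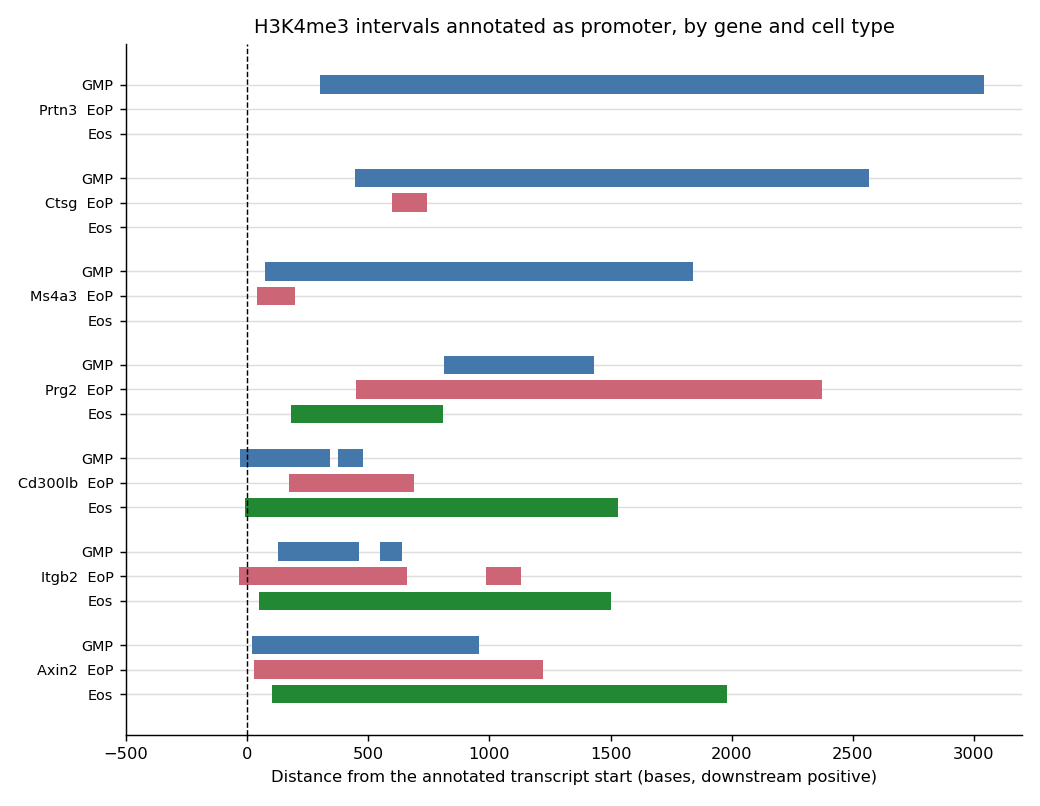
Intervals annotated as promoter in the GMP, EoP and Eos lists (1 library each) of 7 genes with 1 annotated start, drawn to scale against the distance from that start in bases. The longest Prtn3, Ctsg and Ms4a3 intervals are in GMP, that of Prg2 in EoP and those of Cd300lb, Itgb2 and Axin2 in Eos.

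About 1 in 2 of the widest genes of one cell type were also among the widest of another. The EoP and GMP sets shared 263 genes (52.6% of each), the Eos and EoP sets 253 (50.6%) and the Eos and GMP sets 242 (48.4%). All 3 sets held 181 genes (36.2% of each), while 176 genes were in the GMP set alone, 165 in the EoP set alone and 186 in the Eos set alone. A further 82 were shared by GMP and EoP, 72 by EoP and Eos, and 61 by GMP and Eos. Ranking by the widest single interval kept 143, 135 and 176 of the 500 GMP, EoP and Eos members and lowered the share common to all 3 sets to 18.2%.

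The genes wide in all 3 cell types were led by Gse1, a component of a histone deacetylase corepressor complex, with 3724 bases in GMP, 3112 in EoP and 3697 in Eos, which is the largest sum in each list. Hnrnpf, which binds RNA and acts in splicing, summed to 3590 bases in GMP, 2719 in EoP and 2515 in Eos, from 5 to 9 intervals. Kctd1 had 3266 bases in GMP, 2680 in EoP and 2106 in Eos, and the septin Sept9 had 3206 bases in GMP, 2553 in EoP and 2225 in Eos. RNA levels differed among these 4 genes: they were between 3.91 and 8.48 RPKM for Gse1, between 4.57 and 10.5 for Hnrnpf, between 1.08 and 4.04 for Kctd1, and between 11.8 and 24.3 for Sept9. Among the machinery that writes, reads or removes H3K4 methylation, 3 genes were in every set: Kdm2b, a demethylase that binds CpG islands, Ing2, a reader of the mark, and Kmt2e, of the MLL family.

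The genes with the widest promoter mark had higher RNA levels at the median than all marked genes together, in each of the 6 libraries. The median member had 5.29 and 5.06 RPKM in the GMP libraries, 8.59 and 9.03 in EoP and 8.65 and 8.46 in Eos. The median over all genes with a promoter interval was 2.25 and 2.17 RPKM in GMP, 3.85 and 4.16 in EoP and 2.71 and 1.96 in Eos. The genes ranked next after the members lay nearer to them than to this median in all 6 libraries. Up to rank 1000 their medians were 4.73 and 4.65 RPKM in GMP, 6.55 and 7.23 in EoP and 7.05 and 6.48 in Eos. The higher level was therefore not particular to the 500 members. Beyond rank 8000 the medians of the 2 libraries were 0.497 and 0.467 RPKM for GMP, 1.12 and 1.20 for EoP, and 0.625 and 0.358 for Eos. Under 1 RPKM in both libraries were 37 members (7.4%) in GMP, 25 (5.0%) in EoP and 39 (7.8%) in Eos, against 33.4%, 21.6% and 30.3% of all genes with a promoter interval. Among the genes ranked next, up to rank 1000, these shares were 9.8%, 7% and 8.8%.

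**Figure D2:**
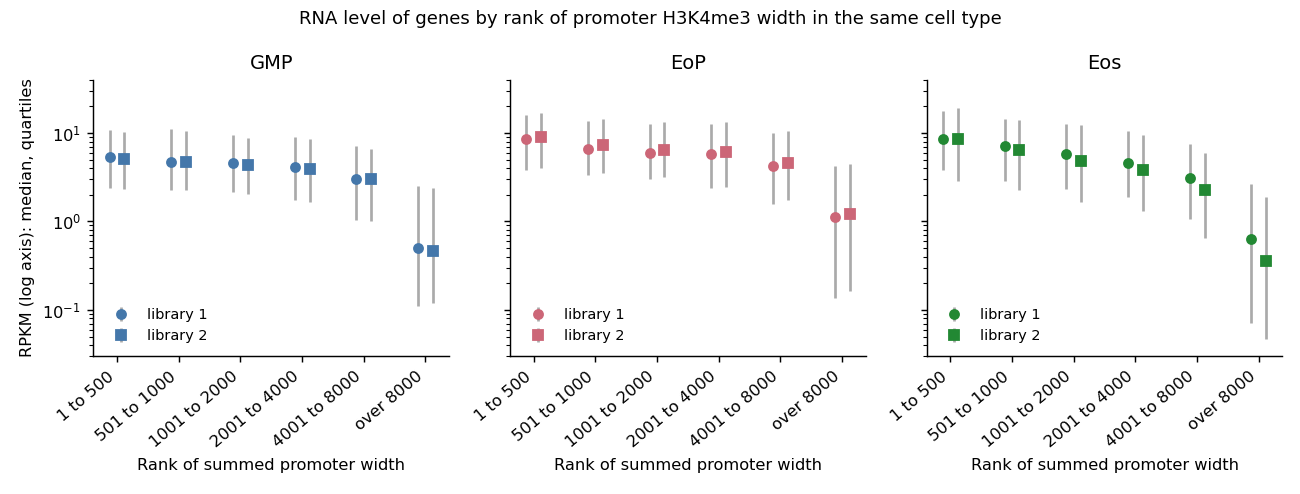
Median RPKM (log axis) of genes grouped by the rank of their summed promoter width in the same cell type, for each of the 2 RNA libraries, with bars from the lower to the upper quartile. Medians are highest for ranks 1 to 500 and lowest beyond rank 8000 in all 6 libraries.

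Of the 100 most abundant RNAs by mean RPKM, 10 were in the GMP set, 6 in the EoP set and 10 in the Eos set, where 3.77%, 4.42% and 4.21% of all marked genes were members. The 10 in GMP included Prtn3, Ctsg and Ms4a3, and the 6 in EoP included Prg2 and P4hb, a protein disulfide isomerase. The 10 in Eos included Itgb2, Clec12a, Coro1a and Gnai2. Of the 20 most abundant RNAs, 4 were members in GMP (Prtn3, Ctsg, Rpl4 and Gnb2l1), 3 in EoP (Prg2, Rn45s and Arhgdib) and 0 among the Eos RNAs. The sets held 7.61% and 8.05% of all summed RPKM in the GMP libraries, 38.7% and 36.1% in EoP and 6.12% and 7.23% in Eos. The larger EoP share was not seen in the median member, which had 8.59 and 9.03 RPKM in EoP and 8.65 and 8.46 in Eos. Very abundant single RNAs such as Prg2 and Rn45s enter that share, and their part in it was not tested. Mpo, the gene of myeloperoxidase, had 29891 and 28330 CPM in GMP and 1050 bases of promoter mark there, which is rank 5358, and Elane, the gene of neutrophil elastase, had 6487 and 5685 CPM and 648 bases.

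The first RNA comparison, EoP against GMP, asks whether genes in the set of one progenitor and not of the other differed in RNA. Of 232 tested genes of the EoP set that were not in the GMP set, 45 (19.4%) rose in EoP and 2 fell. Over all genes tested 9.49% were called higher and 17.1% lower, and over the 10583 genes with a promoter interval in both lists 11.3% and 6.81%. Of 228 tested genes of the GMP set outside the EoP set, 16 (7.02%) fell and 20 rose, a share of falls close to the 6.81% of marked genes. Of 260 genes in both sets, 30 rose and 8 fell. The median log2 fold change was 0.33 for the EoP genes, 0.00 for the GMP genes, 0.21 for the shared genes and 0.08 for all marked genes. In bulk RNA, fewer cells of a type and less RNA per cell cannot be told apart. The counts depended on single libraries: the 45 rises became fewer without a GMP or EoP library and more without either Eos library. The Eos libraries enter the shared fit, its filter and its scaling, and which of these moved the count was not tested. The 16 falls were 4 without either GMP library, 8 without either EoP library, and 30 and 31 without Eos library 1 and 2. With limma on RPKM, which carry no TMM scaling, 73 of the EoP genes rose and 7 of the GMP genes fell, and 86.3% of all its calls were higher in EoP, against 35.7% with edgeR.

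The largest rise among the genes that were wide in one progenitor was that of Prg2, with 983 and 235 CPM in GMP, 176395 and 137064 in EoP and 4426 and 3321 in Eos (EoP against GMP: log2 fold change 8.01, SE 0.94, edgeR adjusted p = 5.23e-04). Its EoP libraries stood above all others, and its wide interval was listed in the same cells. Prkca, the gene of protein kinase C alpha, had 16.1 and 23.7 CPM in GMP, 188 and 203 in EoP and 189 and 255 in Eos (EoP against GMP: log2 fold change 3.30, SE 0.28, edgeR adjusted p = 1.02e-04). The mark summed to 1529 bases in GMP, 1439 in EoP and 1537 in Eos. Prepl had 36.6 and 30.7 CPM in GMP, 309 and 258 in EoP and 37.8 and 44.0 in Eos, high in EoP and low on either side (EoP against GMP: log2 fold change 3.07, SE 0.24, edgeR adjusted p = 5.72e-05). Prepl and its neighbour Camkmt shared the same intervals, which summed to 1428 bases for both in EoP. The mark was not widest where RNA was highest. Camkmt intervals of 862 and 680 bases in GMP, outside that set, came to more than the 672 and 756 in EoP. Camkmt RNA showed the same order as that of Prepl, with 10.4 and 5.36 CPM in GMP, 52.5 and 43.5 in EoP and 10 and 10.5 in Eos. Fam46a went the other way: it was in the GMP set at 1807 bases and had 1050 in EoP, while its RNA rose (158 and 131 CPM in GMP, 1075 and 1104 in EoP and 274 and 548 in Eos; EoP against GMP: log2 fold change 2.91, SE 0.34, edgeR adjusted p = 5.47e-04).

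The 4 largest falls among the GMP genes were those of Prtn3, Ctsg, Igfbp4 and Bcl11a, of which Prtn3 and Ctsg encode proteases of neutrophil primary granules. Prtn3 had 2737 and 2622 CPM in GMP, 72.4 and 54.8 in EoP and 899 and 239.8 in Eos, so that GMP stood above both other cell types and the 2 Eos libraries differed from each other (EoP against GMP: log2 fold change -5.40, SE 0.59, edgeR adjusted p = 3.49e-04). Ctsg had 2644 and 2408 CPM in GMP, 183 and 319 in EoP and 1024 and 315 in Eos (EoP against GMP: log2 fold change -3.33, SE 0.52, edgeR adjusted p = 0.00271). Ms4a3, a membrane protein of myeloid progenitors that fell less, had 554 and 498 CPM in GMP, 131 and 112 in EoP and 309 and 94.2 in Eos (EoP against GMP: log2 fold change -2.11, SE 0.45, edgeR adjusted p = 0.00962), with 1767 bases of promoter mark in GMP, 160 in EoP and none in Eos. This Ms4a3 call was lost without GMP library 1, GMP library 2 or EoP library 2 and with limma on RPKM (adjusted p = 0.0539 to 0.0734). Igfbp4, which binds insulin-like growth factors, had 257 and 296 CPM in GMP, 41.2 and 55.7 in EoP and 109 and 37.0 in Eos (EoP against GMP: log2 fold change -2.51, SE 0.43, edgeR adjusted p = 0.00396). Its promoter sum was 1924 bases in GMP, 937 in EoP and 641 in Eos. Bcl11a, a zinc finger repressor, had 74.8 and 88.3 CPM in GMP, 11.4 and 24.9 in EoP and 37.6 and 17.5 in Eos (EoP against GMP: log2 fold change -2.16, SE 0.42, edgeR adjusted p = 0.00677). The mark summed to 1747 bases in GMP, 956 in EoP and 538 in Eos. This Bcl11a call was lost without GMP library 2 (adjusted p = 0.0642).

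The second comparison, Eos against EoP, covers the step from the progenitor to the mature cell. Of 242 tested genes of the Eos set that were not in the EoP set, 118 (48.8%) rose in Eos and 24 fell, where 19.1% of all genes tested and 18.7% of marked genes were higher. Of 242 genes of the EoP set outside the Eos set, 69 (28.5%) fell and 32 rose, where 17.7% of all genes and 22.6% of marked genes were lower. The 250 genes in both sets also leaned upward, with 75 rises and 31 falls. The median log2 fold change was 0.73 for the Eos genes, -0.21 for the EoP genes, 0.33 for the shared genes and -0.17 for all marked genes. Leaving out a library moved the 118 rises to between 90 and 136, and the 69 falls to 43 without EoP library 1 and 42 without EoP library 2. On RPKM, which carry no TMM scaling, limma called 83 rises and 126 falls, and 25% of its calls over all genes were higher in Eos, against 51.8% with edgeR. The median log2 fold change over all genes was -0.54 in that fit, 0.02 in edgeR with TMM and 0.13 with DESeq2 size factors.

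Relative to EoP, Eos had more width and more RNA at a nuclear receptor, at glycan enzymes and at a cytokine gene. Rara, the retinoic acid receptor alpha, went from 935th in EoP to the third widest gene in Eos (1512 bases in GMP, 1267 in EoP and 2661 in Eos), with 10.3 and 8.64 CPM in GMP, 8.14 and 7.54 in EoP and 71.4 and 123 in Eos, and both Eos libraries stood above the other 4 (Eos against EoP: log2 fold change 3.63, SE 0.32, edgeR adjusted p = 5.13e-05). Gcnt2, which branches blood group I antigen chains, had 2167 bases in GMP, 409 in EoP and 1661 in Eos, lowest in EoP. Its RNA was lowest there too, with 14.6 and 14.3 CPM in GMP, 3.89 and 5.74 in EoP and 187 and 412 in Eos (Eos against EoP: log2 fold change 5.94, SE 0.43, edgeR adjusted p = 2.03e-05). Ltb, the gene of lymphotoxin beta, had 1.33 and 0.149 CPM in GMP, 2.24 and 0.943 in EoP and 36.6 and 55.9 in Eos (Eos against EoP: log2 fold change 4.89, SE 0.59, edgeR adjusted p = 2.88e-04). Its promoter sum was 1122 bases in GMP, 850 in EoP and 1593 in Eos. Mkx, a homeobox gene, had no count in either GMP library, 10.8 and 11.9 CPM in EoP and 161 and 254 in Eos (Eos against EoP: log2 fold change 4.18, SE 0.30, edgeR adjusted p = 3.73e-05), and widths of 544 bases in GMP, 497 in EoP and 1475 in Eos. Chst15, a sulfotransferase of chondroitin sulfate chains, had 25.5 and 22.3 CPM in GMP, 14.2 and 34.5 in EoP and 326 and 523 in Eos (Eos against EoP: log2 fold change 4.12, SE 0.42, edgeR adjusted p = 1.28e-04), with 1150 bases in EoP, 1578 in Eos and, more than either, 1714 in GMP.

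The falls from EoP to Eos among the EoP genes were led by Prg2 (Eos against EoP: log2 fold change -5.34, SE 0.83, edgeR adjusted p = 0.00118), whose mark narrowed from 1923 to 630 bases. Prepl (Eos against EoP: log2 fold change -2.79, SE 0.23, edgeR adjusted p = 4.26e-05) and Camkmt (Eos against EoP: log2 fold change -2.22, SE 0.33, edgeR adjusted p = 9.39e-04) fell beside it, at widths that hardly differed between EoP and Eos (1428 and 1366 bases). Orc6, a subunit of the origin recognition complex, had 25.3 and 24.4 CPM in GMP, 36.6 and 41.1 in EoP and 11.6 and 5.73 in Eos (Eos against EoP: log2 fold change -2.15, SE 0.34, edgeR adjusted p = 0.00122) and summed to 1465 bases in EoP and 1388 in Eos. For Prepl, Camkmt and Orc6, RNA fell at promoters that differed little in width between the lists.

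Eos against GMP compares the ends of the sampled series and gave the largest shares of the 3. Of 254 tested genes of the Eos set outside the GMP set, 156 (61.4%) rose in Eos and 27 fell, where 22.7% of all genes and 25.6% of marked genes were higher. Of 250 genes of the GMP set outside the Eos set, 100 (40%) fell and 60 rose, where 31.8% of all genes and 28.5% of marked genes were lower. Of 238 genes in both sets, 107 rose and 30 fell. Median log2 fold changes were 1.16, -0.38 and 0.55 for these groups and -0.17 for all marked genes. The 156 rises ranged from 127 to 165 with a library left out. The 100 falls were 52 without GMP library 2 and 67 to 107 without any other. The 3 comparisons share libraries and are given side by side, not as separate evidence.

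Axin2 had 1.45 and 2.09 CPM in GMP, 23.4 and 24.6 in EoP and 138 and 227 in Eos, a stepwise order with no overlap between cell types (Eos against GMP: log2 fold change 6.70, SE 0.37, edgeR adjusted p = 2.11e-06). Cd300lb, an activating receptor of myeloid cells, had 11.9 and 8.64 CPM in GMP, 65.9 and 86.9 in EoP and 504 and 795 in Eos (Eos against GMP: log2 fold change 5.98, SE 0.35, edgeR adjusted p = 3.13e-06), in the same order as its width of 477 bases in GMP, 518 in EoP and 1539 in Eos. Itgb2, the beta-2 integrin chain CD18, had 57.6 and 34.9 CPM in GMP, 455 and 563 in EoP and 1642 and 2439 in Eos (Eos against GMP: log2 fold change 5.46, SE 0.39, edgeR adjusted p = 7.91e-06). The mark summed to 424 bases in GMP, 837 in EoP and 1454 in Eos. Arhgap25, a GTPase-activating protein for Rac, was the fourth widest gene in Eos at 2518 bases, with 24.4 and 32.0 CPM in GMP, 94.5 and 80.7 in EoP and 450.3 and 841 in Eos (Eos against GMP: log2 fold change 4.52, SE 0.35, edgeR adjusted p = 1.33e-05). For Mkx, 3 counts over the 2 GMP libraries would be 0.200 CPM, so its mean of 207 CPM in Eos was at least 1036-fold higher. These 5 genes rose in Eos against GMP, and each was in the Eos set and outside the GMP set.

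The GMP genes that fell toward Eos included Myc, the growth regulator, with 195 and 298 CPM in GMP, 134 and 123 in EoP and 61.1 and 19.6 in Eos (Eos against GMP: log2 fold change -2.61, SE 0.45, edgeR adjusted p = 0.00136). Its promoter sum was 1749 bases in GMP, 1042 in EoP and 581 in Eos. Ptprs, a receptor tyrosine phosphatase, had 84.4 and 93.7 CPM in GMP, 67.2 and 107 in EoP and 16.6 and 6.67 in Eos (Eos against GMP: log2 fold change -2.93, SE 0.40, edgeR adjusted p = 3.62e-04), and Snhg1, a host gene of small nucleolar RNAs, had 158 and 215 CPM in GMP, 128 and 104 in EoP and 38.6 and 24.0 in Eos (Eos against GMP: log2 fold change -2.57, SE 0.29, edgeR adjusted p = 1.18e-04). Sox4, a transcription factor of stem and progenitor cells, had low RNA throughout, with 12.8 and 14.9 CPM in GMP, 3.07 and 1.97 in EoP and 2.01 and 0.702 in Eos (Eos against GMP: log2 fold change -3.32, SE 0.58, edgeR adjusted p = 0.00142), and its mark narrowed from 1863 bases in GMP to 844 and 579. Jun, an immediate early gene, differed widely between libraries of 1 cell type, with 119 and 623 CPM in GMP, 739.9 and 7.54 in EoP and 18.7 and 33.4 in Eos (Eos against GMP: log2 fold change -3.83, SE 1.45, edgeR adjusted p = 0.0455). The mark summed to 2141 bases in GMP, 514 in EoP and 954 in Eos. This Jun call was lost without GMP library 1, GMP library 2, Eos library 1 or Eos library 2, at a minimum of 50 counts in 2 libraries, with DESeq2's Wald test and with limma on RPKM (adjusted p = 0.0585 to 0.310).

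**Figure D3:**
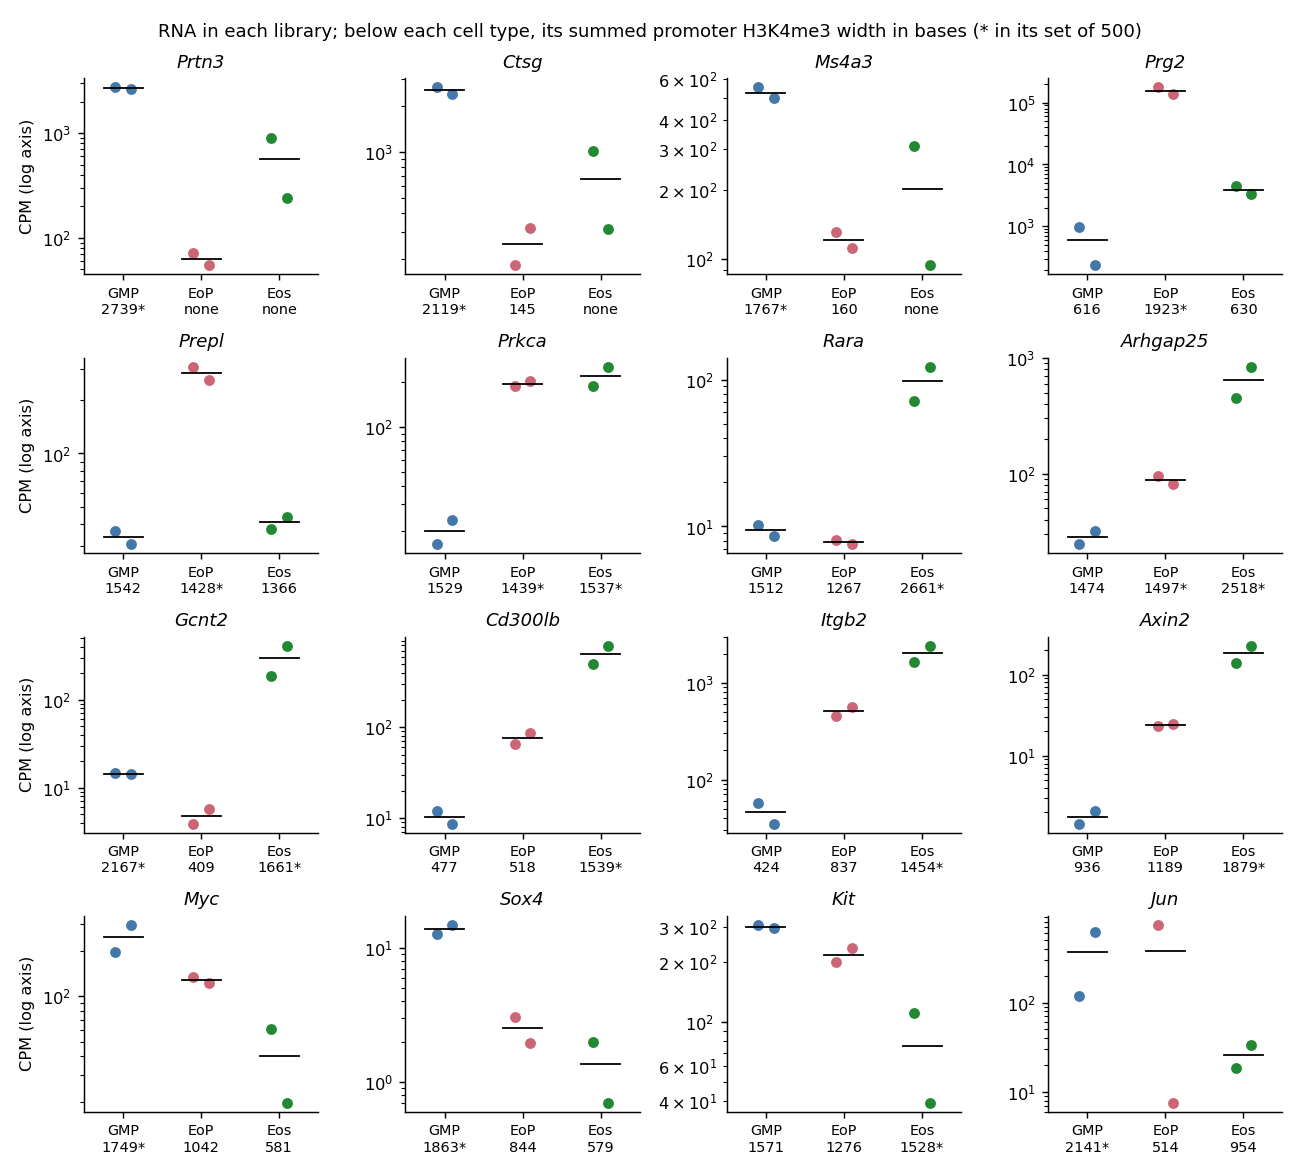
CPM (log axis) in each of the 6 RNA libraries for 16 named members, with a line at the mean of the 2 libraries, and below each cell type the summed promoter width in bases, with * where the gene is in that set. Prtn3, Ctsg and Ms4a3 are highest in GMP, Prg2 and Prepl in EoP, and Rara, Cd300lb, Itgb2 and Axin2 in Eos, while the 2 EoP libraries of Jun lie at 739.9 and 7.54 CPM.

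**Figure D4:**
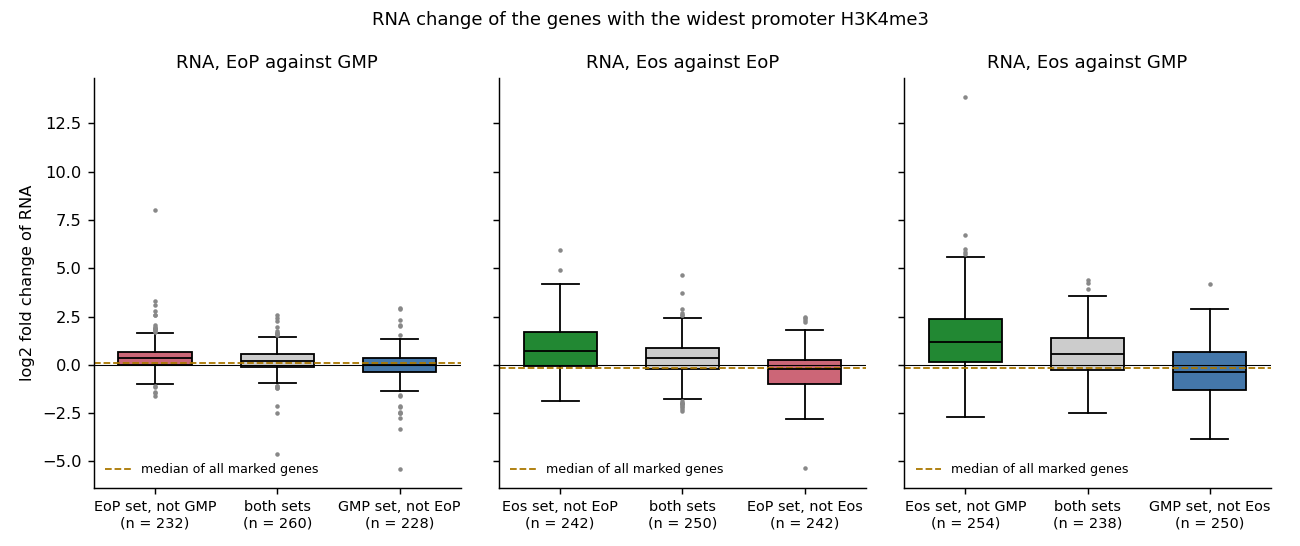
RNA log2 fold change of members that were in one set and not the other, or in both, for the 3 comparisons (boxes: median and quartiles, whiskers to the last point near the box, points beyond). The Eos genes have medians of 0.73 against EoP and 1.16 against GMP; the dashed line is the median of all genes with a promoter interval in both lists, and the highest point is Mkx, which had no GMP count.

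The farther a member ranked in the other list, the more often its RNA was called in the same direction in most of these comparisons. Among Eos genes, those up to rank 1000 in EoP rose in 32 of 81 cases, the next up to rank 2000 in 35 of 75, the next up to rank 4000 in 27 of 49, and those beyond or without an interval in 24 of 37, with 0 falls in the last group. Against GMP the same 4 groups gave 59 of 106, 37 of 67, 34 of 49 and 26 of 32. Among GMP genes, falls in Eos were 24 of 77, 27 of 75, 21 of 52 and 28 of 46. For the GMP genes in EoP, falls were 8 of 38 in the last group and 2 of 73, 3 of 62 and 3 of 55 in the groups before it. Among EoP genes, falls in Eos were 24 of 100, 26 of 97, 12 of 36 and 7 of 9. Their rises against GMP were 24 of 133, 13 of 74, 6 of 22 and 2 of 3. The last groups, of few far ranks, are too small to read an order from. Over marked genes, 18.7% rose and 22.6% fell in Eos against EoP, and 25.6% rose and 28.5% fell in Eos against GMP. In EoP against GMP, 11.3% of them rose and 6.81% fell.

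Across genes, the log2 ratio of widths and the log2 fold change of RNA had a Spearman rank correlation of 0.228 (EoP against GMP, 10583 marked genes), 0.289 (Eos to EoP, 10398) and 0.407 (Eos to GMP, 10759). Over the members of either compared set the values were 0.282 (718 genes), 0.423 (733) and 0.480 (738). Genes that share an interval share a width, and all points of a comparison come from the same libraries, so these are descriptions.

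**Figure D5:**
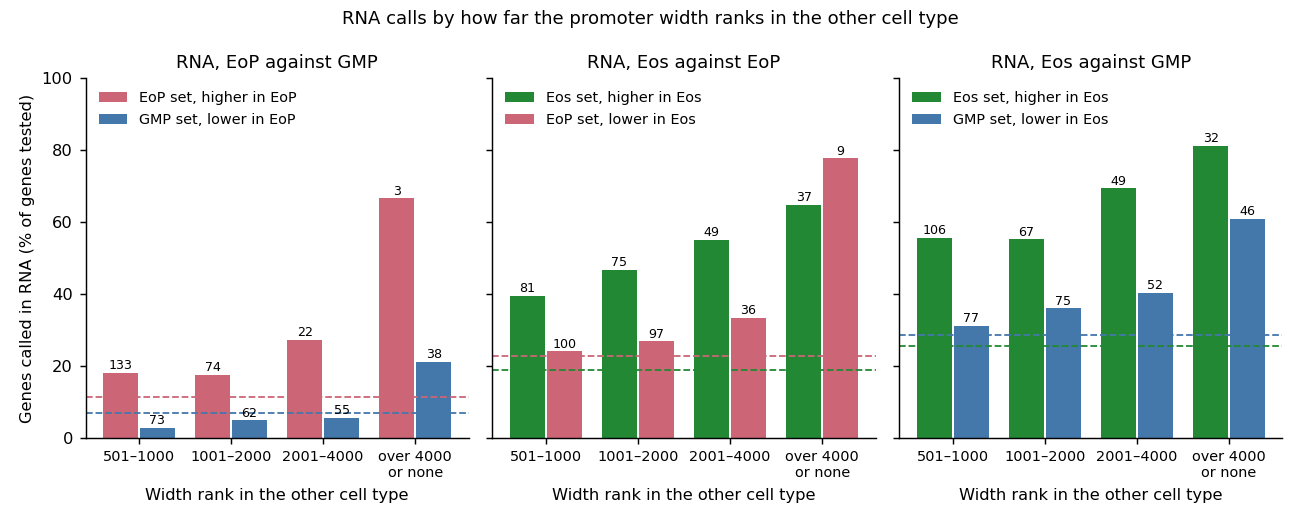
Share of members of one set, outside the other, called in RNA in the named direction (% of genes tested, the number tested above each bar), by the width rank in the other cell type. Dashed lines give the share over all genes with a promoter interval in both lists; the Eos genes go from 39.5% to 64.9% against EoP and from 55.7% to 81.3% against GMP.

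By role, the granule lists held 4 members. Of 10 eosinophil granule genes 1, Prg2, was in a set, beside 4.42% of all marked EoP genes. All 10 rose from GMP to EoP and all 10 fell from EoP to Eos. Over all genes tested 9.49% were higher in EoP against GMP and 17.7% lower in Eos against EoP. Epx, eosinophil peroxidase, had 26969 and 23218 CPM in EoP at 772 bases of promoter mark, and Prg3 had 5762 and 4816 CPM at 957 bases. The Ear ribonucleases are near-identical copies whose reads and intervals may be split among them, and the widest in EoP, Ear6 and Ear7, were listed at 603 bases each. A list of 11 genes of the GMP granule programme, which also holds genes that encode no granule protein (Ms4a3 and Igsf6 among them), had Prtn3, Ctsg and Ms4a3 in the GMP set. It had none in the others, and 3.77% of all marked GMP genes were members. Their RNA fell in EoP (above) and stayed below GMP in Eos, with Prtn3 as an example (Eos against GMP: log2 fold change -2.23, SE 0.51, edgeR adjusted p = 0.00552). This Ctsg call was lost without GMP library 2 (adjusted p = 0.0505). This Ms4a3 call was lost without GMP library 1 or GMP library 2 (adjusted p = 0.0997 to 0.106). In Eos against EoP, Prtn3 was higher (Eos against EoP: log2 fold change 3.16, SE 0.53, edgeR adjusted p = 0.00171) without any listed promoter interval in Eos.

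Of 70 transcription factors of the lineage, 12 were in the GMP set, 8 in the EoP set and 14 in the Eos set, 18 in at least 1. Over all marked genes these shares were 3.77%, 4.42% and 4.21%, and 923 of 13577 were in at least 1 set. Gfi1, a repressor needed by granulocytes, Runx1, Runx2, Foxp1 and Cebpd were in all 3. Cebpe, a late granulocyte factor, was in the EoP and Eos sets at 1397 and 1784 bases against 1342 in GMP, and had 11.5 and 20.9 CPM in GMP, 127 and 92.1 in EoP and 72.1 and 67.2 in Eos (EoP against GMP: log2 fold change 2.76, SE 0.31, edgeR adjusted p = 4.60e-04). Cebpa, a factor of the GMP stage, had 2067 bases in GMP, 1180 in EoP and 198 in Eos, and its RNA was 55.4 and 68.8 CPM in GMP, 11.1 and 29.7 in EoP and 20.9 and 12.5 in Eos (Eos against GMP: log2 fold change -1.89, SE 0.43, edgeR adjusted p = 0.00531). This Cebpa call was lost without GMP library 2 (adjusted p = 0.0555). Trib1, a pseudokinase that lowers C/EBP alpha protein, had 1718 bases in GMP, 2151 in EoP and 1880 in Eos and 12.5 and 68.8 CPM in GMP, 229 and 65.0 in EoP and 208 and 318 in Eos (Eos against GMP: log2 fold change 2.70, SE 0.73, edgeR adjusted p = 0.0120). This Trib1 call was lost without GMP library 1 (adjusted p = 0.0619). Sfpi1, the gene of PU.1, dipped in width in EoP (1786 bases in GMP, 1026 in EoP and 1857 in Eos) while its RNA was not lowest there (115 and 143 CPM in GMP, 183 and 146 in EoP and 295 and 311 in Eos). Runx1 stayed wide in all 3 lists (1995 bases in GMP, 1945 in EoP and 1812 in Eos) while its RNA fell in Eos (211 and 218 CPM in GMP, 155 and 229 in EoP and 86.5 and 45.4 in Eos; Eos against EoP: log2 fold change -1.54, SE 0.32, edgeR adjusted p = 0.00476). Of the 18 members, 7 rose and 3 fell in Eos against EoP, beside 28 and 10 of all 69 tested genes of the list. Against GMP 9 rose and 3 fell, beside 32 and 14. Over all genes tested 19.1% and 22.7% were higher and 17.7% and 31.8% lower, and the members' shares were close to those of their list. Cebpa, Cebpe, Sfpi1, Runx1 and, below, Rrm2, Fosl2 and Dusp1 were picked after their values were seen, as were the non-members Mpo, Elane, Epx, Prg3, Retnlg and S100a9.

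Stem and progenitor genes held 4 members of 30, where 923 of all 13577 marked genes were in at least 1 set. Sox4, Lmo2 and Msi2 were in the GMP set and Lmo2 and Kit in the Eos set. Kit, the receptor used to sort the progenitors, had 309 and 296 CPM in GMP, 200 and 237 in EoP and 111 and 39.1 in Eos, so that Eos stood lowest (Eos against GMP: log2 fold change -2.01, SE 0.40, edgeR adjusted p = 0.00301), yet its promoter mark was 1571 bases in GMP, 1276 in EoP and 1528 in Eos, rank 334 there. Lmo2, a partner of GATA factors, had 126 and 111 CPM in GMP, 53.8 and 74.1 in EoP and 133 and 116 in Eos, with its lowest width, 1260 bases, and its lowest RNA in EoP. Msi2, an RNA-binding protein, narrowed from 1721 to 939 and 1322 bases, with 74.7 and 74.9 CPM in GMP, 32.0 and 46.6 in EoP and 32.0 and 25.1 in Eos (Eos against GMP: log2 fold change -1.39, SE 0.26, edgeR adjusted p = 0.00197). Over the list of 28 tested genes, 23 fell in Eos against GMP, at a median log2 fold change of -2.27 against -0.39 over all genes tested. Of all genes tested 31.8% were lower. The other sort genes were no members: Ccr3 had 928 bases in Eos and no promoter interval in the progenitors, and Il5ra had 145 bases in EoP and 403 in Eos.

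Of 47 genes of the eosinophil surface and adhesion, Itgb2, Ptger4 and Clec12a were members, all of the Eos set, which held 4.21% of all marked Eos genes. Ptger4, the prostaglandin E2 receptor EP4, had 7.99 and 10.3 CPM in GMP, 12.6 and 15.2 in EoP and 80.5 and 130.1 in Eos (Eos against GMP: log2 fold change 3.53, SE 0.31, edgeR adjusted p = 2.57e-05), although its width was the same in GMP and Eos (1504 bases) and its rank went from 1260 to 363. Clec12a, an inhibitory lectin, had 857 and 702 CPM in GMP, 1712 and 1559 in EoP and 1367 and 1574 in Eos (Eos against GMP: log2 fold change 0.92, SE 0.27, edgeR adjusted p = 0.0158). This Clec12a call was lost without GMP library 1 or GMP library 2 (adjusted p = 0.0501 to 0.0771). Over the whole list, 38 of 47 genes rose in Eos against GMP and 4 fell, where 22.7% of all genes tested were higher and 31.8% lower.

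Of 46 replication and mitosis genes, Plk1, Orc6 and Aurka were in the GMP and EoP sets, Cdk1, Mcm4 and Rrm2 in the EoP set, and Mcm7 in the Eos set. The GMP, EoP and Eos sets held 3.77%, 4.42% and 4.21% of all marked genes. Cdk1, Mcm4 and Rrm2 had more bases in GMP (1485, 1488 and 1648), outside that set, than in EoP (1425, 1412 and 1399). Mcm7 had 1717 bases in GMP, at rank 509, more than in Eos. All 7 members fell in Eos against EoP, as did 45 of the 46, where 17.7% of all genes tested were lower. The list's median log2 fold change was -1.64, against 0.02 over all genes tested. Rrm2, a subunit of ribonucleotide reductase, had 1648 bases in GMP, 1399 in EoP and 399 in Eos and 159 and 138 CPM in GMP, 213 and 226 in EoP and 94.0 and 37.7 in Eos (Eos against EoP: log2 fold change -1.73, SE 0.36, edgeR adjusted p = 0.00498). Mcm7, of the replicative helicase, was in the Eos set at 1597 bases, above its 1330 in EoP, while its RNA fell (142 and 154 CPM in GMP, 145 and 172 in EoP and 64.3 and 27.1 in Eos; Eos against EoP: log2 fold change -1.79, SE 0.35, edgeR adjusted p = 0.00368). Of 19 cell cycle inhibitors, 5 were members of a set, beside 923 of all 13577 marked genes. Mxi1, an antagonist of Myc, was in all 3 sets (1777 bases in GMP, 1523 in EoP and 1912 in Eos) and had 71.9 and 71.4 CPM in GMP, 107 and 81.7 in EoP and 189 and 205 in Eos (Eos against GMP: log2 fold change 1.46, SE 0.22, edgeR adjusted p = 6.55e-04). Ccng2 had 13.8 and 15.6 CPM in GMP, 74.4 and 36.9 in EoP and 167 and 305 in Eos (Eos against GMP: log2 fold change 4.0, SE 0.41, edgeR adjusted p = 5.86e-05), in the EoP and Eos sets. The replication list's summed level was 3890 and 1961 CPM in the Eos libraries, which differed from each other, and 6544 to 9460 in the others.

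The NF-kappaB and immediate early list had 12 members of 51, 9 of them in the Eos set. Among all marked genes, 923 of 13577 were in at least 1 set, and 4.21% of those in Eos were in the Eos set. These genes were uneven between libraries of 1 cell type, with a summed level of 1683 and 5850 CPM in GMP, 9711 and 1209 in EoP and 6153 and 14324 in Eos, and this unevenness moves with the results of Jun and Dusp1, and its part was not tested. Fosl2, a Fos family member, had 1136 bases in GMP, 1175 in EoP and 1612 in Eos and 66.8 and 48.7 CPM in GMP, 31.0 and 54.1 in EoP and 265 and 392 in Eos, with both Eos libraries above the rest (Eos against EoP: log2 fold change 2.95, SE 0.33, edgeR adjusted p = 2.10e-04). Dusp1, a phosphatase of MAP kinases, had 78.9 and 612 CPM in GMP, 1448 and 7.20 in EoP and 361 and 1960.5 in Eos, with the highest EoP value far above the lowest (Eos against EoP: log2 fold change 0.67, SE 1.52, edgeR adjusted p = 0.754).

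Among 34 genes of H3K4 methylation, 7 were in the GMP set, 5 in the EoP set and 6 in the Eos set. These sets held 3.77%, 4.42% and 4.21% of all marked genes. Kmt2e had 273 and 251 CPM in GMP, 295 and 319 in EoP and 704 and 919 in Eos (Eos against EoP: log2 fold change 1.40, SE 0.24, edgeR adjusted p = 0.00188), and Kmt2c, which writes H3K4 monomethylation at enhancers, had 189.9 and 189.8 CPM in GMP, 289.6 and 336 in EoP and 746 and 1175 in Eos (Eos against EoP: log2 fold change 1.62, SE 0.27, edgeR adjusted p = 0.00175). Kdm2b was among the 31 widest genes of each list, at rank 8, 31 and 10, with 0.89 to 2.44 RPKM. Of the 10 members in this list, 4 rose and 2 fell in Eos against EoP, and none was called in EoP against GMP. Over the whole list 12 of 34 rose and 3 fell, and 1 was called in EoP against GMP. Over all genes tested 19.1% were higher and 17.7% lower in Eos against EoP, and 9.49% and 17.1% in EoP against GMP. Of 26 ER folding genes, P4hb was in the EoP and Eos sets and had 689 and 806 CPM in GMP, 1795 and 1426 in EoP and 366 and 258 in Eos (Eos against EoP: log2 fold change -2.37, SE 0.29, edgeR adjusted p = 3.29e-04), highest in EoP, while its width was 1493 bases in EoP and 1486 in Eos.

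Lists of other lineages held 1 member, Kit, among 17 mast cell and basophil genes. The lymphoid (24 genes), erythroid and megakaryocyte (19), monocyte, macrophage and dendritic (25) and late neutrophil (22) lists held 0. Many of these genes had no promoter interval. Those with any in GMP, EoP and Eos were 6, 3 and 2 lymphoid, 7, 6 and 6 erythroid and megakaryocyte, 15, 4 and 12 monocyte and 3, 2 and 9 late neutrophil genes. With 3.77% to 4.42% of marked genes in a set, counts of 0 in lists this short are near the general share. Of 67 replication-dependent histone genes, 46, 32 and 42 had a promoter interval and 0 were members. All 22 late neutrophil genes rose in Eos against EoP, with a median log2 fold change of 5.51, where 19.1% of all genes tested were higher. Of the 22, 9 had a promoter interval in Eos, of a median of 197 bases. Retnlg, which encodes a resistin-like protein, had 20589.6 and 35159 CPM in Eos and 613 bases, and S100a9 had 8732 and 4392 CPM and no listed promoter interval.

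Of 84 ribosomal protein genes, 4 were in the GMP set (Rps12, Rps18, Rpl4 and Rps25), 1 in the EoP set and 0 in the Eos set. The sets held 3.77%, 4.42% and 4.21% of all marked genes. Rpl4 had 1837 and 2277 CPM in GMP, 1821 and 1429.8 in EoP and 935 and 774 in Eos (Eos against GMP: log2 fold change -1.27, SE 0.29, edgeR adjusted p = 0.00536). Its promoter sum was 1744 bases in GMP, 1268 in EoP and 1186 in Eos. This Rpl4 call was lost without GMP library 2 (adjusted p = 0.0695). These genes have processed copies across the genome, so that the split of their reads is uncertain. Their median width over the list went from 1226 bases in GMP to 894 in EoP and 778 in Eos.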

How the data were processed

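RNA-seq (2 sorts each) and H3K4me3 ChIP-seq (1 sort each) of GMP, EoP and Eos were used. Per the file headers, the authors deposited estimated counts and RPKM for each RefSeq transcript. They also deposited H3K4me3 intervals with pileup signal, −log10 p and q values and fold enrichment (a ratio) per summit. The submitters' processing notes name STAR 2.4.0c, Bowtie 1.0.0 and mm10. No source used here gives the peak caller, its control or the H3K4me3 read depth. Transcript counts and RPKM were summed per symbol. Genes passing filterByExpr were tested in 1 edgeR 4.0.16 quasi-likelihood fit over 6 libraries (R 4.3.3, TMM, Benjamini-Hochberg, adjusted p under 0.05), checked on simulated data. Alternatives were DESeq2 1.42.0, limma 3.58.1 on log2(RPKM + 0.5), other filters, other width definitions and leaving out each library. The 3 comparisons share libraries. Members and lists were chosen with earlier results of these data known. Genes were taken by rule: the 5 widest per list, the 4 widest per class of membership, the 4 largest rises and falls per comparison (called, at least 20 CPM, no overlap of libraries), up to 5 members of each gene list, the sort genes and those at the thresholds. Not all genes taken by the rule are named in the text, so those named are a further choice from it. The report names the genes added outside the rule.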

Additional observations from a re-analysis of the deposited data

How the results depend on the processing

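The direction of no named call reversed in any alternative, and 103 of 165 named calls passed the threshold in every one, leaving out a library included. The 45 rises of EoP genes against GMP ranged from 12 to 73 with a library left out, were 73 with limma and 29 at a change of at least 2-fold. The 16 falls of GMP genes ranged from 4 to 31 and were 7 with limma. For Eos against EoP the rises ranged from 90 to 136 and the falls from 42 to 86 (126 with limma). For Eos against GMP they ranged from 127 to 165 and from 52 to 107.

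Libraries of the same replicate number deviated from their cell type's mean with little correlation across genes (-0.139, 0.040 and -0.107). Such values cannot show whether these sorts shared animals, which the labels do not say. With the replicate number as a block the 6 counts were 36, 18, 116, 65, 153 and 101.

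Overlap depended on the width definition. By the widest single interval it was 39.4% for EoP and GMP, 33.4% for Eos and EoP, 34.8% for Eos and GMP and 18.2% for all 3. With 1000 genes it was 60.4% (EoP and GMP), 55.6% (Eos and GMP) and 41.2% (all 3), and with 250 genes 47.2% (EoP and GMP). With all intervals of a gene it was 58.2%, 56.6% and 43.0% for EoP and GMP, Eos and GMP, and all 3. With intervals annotated to 1 gene it was 53.8% for Eos and GMP. Among genes with 1 annotated start, chosen after seeing the data, it was 44.6% for Eos and EoP and 30.8% for all 3.

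The mean of the median RPKM in GMP, EoP and Eos was 4.78, 7.79 and 7.25 by the widest single interval, 4.93, 7.79 and 7.49 with 1000 genes, 6.0, 10.03 and 10.8 with intervals of 1 gene, and 3.96, 7.19 and 6.08 with all intervals. In Eos it was 10.7 with 250 genes and 8.41 with equal numbers of intervals. With all intervals, 18.0% of GMP genes fell in EoP, 21.6% of EoP genes and 32.7% of GMP genes fell in Eos, and 53.8% of Eos genes rose against GMP. Of the Eos genes, 41.3% rose against EoP by the widest single interval and also with 1000 genes. With 250 genes, 20.6% of EoP genes fell in Eos and 71.2% of Eos genes rose against GMP. The cause was not tested.

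H3K4me3 came from 1 library per cell type, so widths carry no replicate error, and their differences between lists cannot be told apart from differences in depth, which is unknown. With 2 RNA libraries per cell type, counts of calls move with single libraries.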
